A study of Homo sapiens with 6 samples.

Results

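The angiopoietin and TIE receptor system was followed through 7 genes, taken by name: the receptor genes TEK (also called TIE2) and TIE1, the receptor phosphatase gene PTPRB, the ligand genes ANGPT1 and ANGPT2, and the related genes ANGPTL2 and ANGPTL4. Each of the 7 had a single row among the 20792 rows of every deposited library. RNA sequencing values were available for HUVECs, primary endothelial cells of the human umbilical vein bought from a supplier. They had been transfected by lipid reagent with 8OH-G miR-483, a microRNA named for the oxidised base it carries (3 libraries), or with unmodified miR-483 (3 libraries). Both groups grew in serum with endothelial growth factor and heparin, and RNA was taken on day 2, after 48 h. The labels do not say whether the libraries came from separate cultures or donors, and p-values therefore reflect no more than the spread among these 6 libraries. A scramble control named in the protocol was not analysed here, so a difference between the groups can come from either microRNA form.

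TEK is the signalling receptor of the system in endothelium. Angiopoietin 1, made mainly by mural cells around vessels, activates it and holds the endothelium quiescent through AKT, which keeps the transcription factor FOXO1 out of the nucleus. Angiopoietin 2 is made and stored by endothelial cells, and it often acts against angiopoietin 1 at the same receptor. TIE1 binds no angiopoietin by itself and modulates TEK, and the phosphatase encoded by PTPRB, VE-PTP, removes phosphate from TEK and from junction proteins.

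With 8OH-G miR-483, the receptor genes and the phosphatase gene fell, whereas the antagonist ligand gene ANGPT2 rose. TEK had a 3.58-fold lower mean and ANGPT2 a 3.98-fold higher mean in 8OH-G miR-483 cells. PTPRB fell 2.35-fold, TIE1 1.39-fold, and ANGPTL4, an inhibitor of lipoprotein lipase, rose 1.43-fold. Of the 6 members that reached the minimum of 1 FPKM in 3 libraries, 2 rose, 3 fell and 1, ANGPTL2, did not pass the test. ANGPT1 stayed under that minimum and was not tested. These counts stand against a broad background: 55.5% of 12202 tested genes passed the same test (limma on log2(FPKM + 1), adjusted p under 0.05), with 35.1% of the tested genes rising and 20.4% falling in 8OH-G miR-483 cells. FPKM, the unit inferred for the deposited values, scales reads for gene length and library size. The files do not show read depth, and errors are therefore those between libraries.

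**Figure D1:**
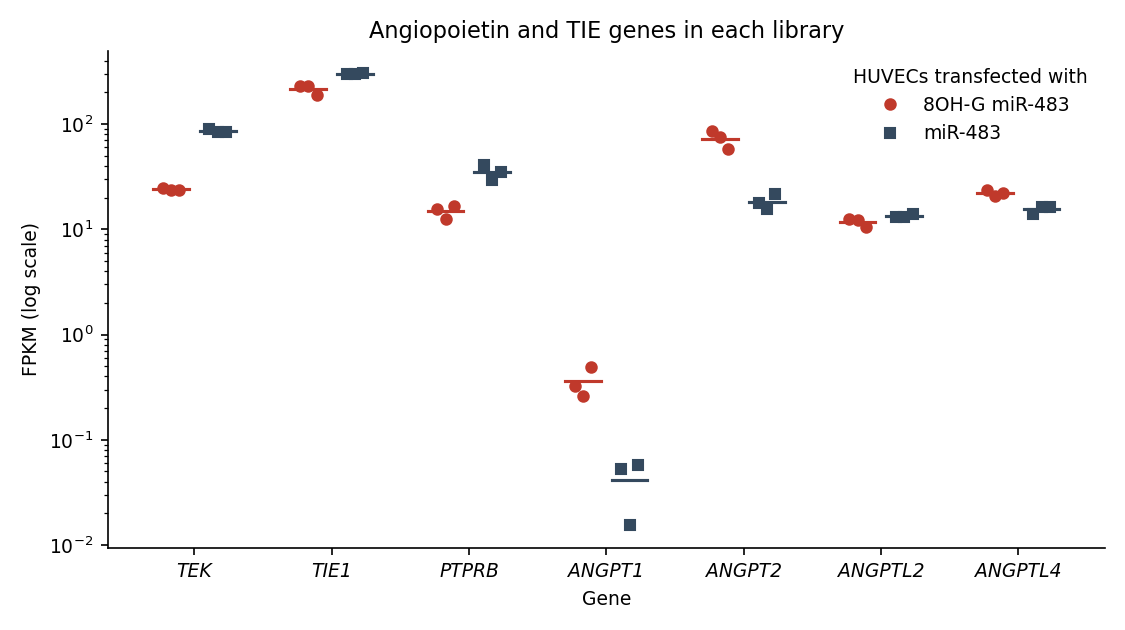
Each point is the FPKM of a gene in 1 library, on a log scale, with 8OH-G miR-483 libraries as red circles, miR-483 libraries as dark squares and a line at the mean of each group of 3. TEK, TIE1, PTPRB and ANGPTL2 sit lower, and ANGPT1, ANGPT2 and ANGPTL4 higher, in the 8OH-G miR-483 libraries. The groups do not overlap for any of the 7 genes, a pattern shared by 63.4% of tested genes.

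The level of the receptor gene TEK was 24.6, 23.7 and 23.9 FPKM in 8OH-G miR-483 cells, against 90.2, 83.7 and 84.5 FPKM in miR-483 cells. The libraries of each group lay close together, with a coefficient of variation of 1.98% in 8OH-G miR-483 cells and 4.16% in miR-483 cells, and the groups were far apart. The fitted log2 fold change was -1.80 (SE 0.062, limma adjusted p = 6.23e-07), on the log2(FPKM + 1) scale used for all fitted changes here. By size it ranked 69 among the 2492 genes that fell. In bulk RNA, fewer cells that express a gene and less RNA of it per cell cannot be told apart. TEK stood above 76.0% of tested genes by mean FPKM in 8OH-G miR-483 cells and above 94.3% in miR-483 cells.

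The orphan receptor gene TIE1 remained the most abundant member in both groups. It measured 229.6, 228.5 and 190.6 FPKM in 8OH-G miR-483 cells, and 299.8, 299.8 and 303.7 FPKM in miR-483 cells. All 8OH-G miR-483 libraries were lower, replicate 3 the most, and the mean was 216 ± 22.2 FPKM there and 301 ± 2.25 FPKM in miR-483 cells (SD, n = 3 libraries each). The log2 fold change was -0.48 (SE 0.087, limma adjusted p = 0.00168). By size this was an ordinary fall, ranking 1247 among 2492. The fold of TEK was larger than that of TIE1. The ratio of TEK to TIE1 within a library, which does not depend on library scaling, was 0.107, 0.104 and 0.125 in 8OH-G miR-483 cells, against 0.301, 0.279 and 0.278 in miR-483 cells. The ratio was 2.56-fold lower in 8OH-G miR-483 cells, with no overlap. The exact two-sided permutation test gave p = 0.1, the smallest that 3 libraries against 3 allow, and 0.1 after Benjamini-Hochberg adjustment over the 3 ratios computed.

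For the receptor genes TEK and TIE1, the 250 bases before their start sites (RefSeq, GRCh38.p14, plus strand) are shown, 5′ to 3′. Capitals mark GGAA and its reverse complement TTCC, the core letters bound by ETS factors, a family long tied to endothelial gene expression. The TEK window is chr9:27108975-27109224 and that of TIE1 is chr1:43300732-43300981.
TEK: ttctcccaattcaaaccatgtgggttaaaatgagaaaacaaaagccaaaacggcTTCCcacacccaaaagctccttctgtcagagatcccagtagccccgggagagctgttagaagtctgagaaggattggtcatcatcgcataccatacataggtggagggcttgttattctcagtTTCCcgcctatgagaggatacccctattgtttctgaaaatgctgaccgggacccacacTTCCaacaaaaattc
TIE1: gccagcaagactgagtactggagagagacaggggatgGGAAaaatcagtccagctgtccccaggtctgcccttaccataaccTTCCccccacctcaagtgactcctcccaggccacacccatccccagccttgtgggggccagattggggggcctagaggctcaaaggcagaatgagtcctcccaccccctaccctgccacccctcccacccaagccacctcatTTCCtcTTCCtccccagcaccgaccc

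The core occurred 3 times in this TEK window and 4 times in that of TIE1, on either strand. At least as many were found in 55.1% and 34.3% of 35116 promoter windows of the same length, whose median was 3. A second annotated TEK start, chr9:27109200-27109449, held 6, and 9.14% of windows held at least as many. It overlaps the first TEK window by 25 bases and shares 1 core with it. The window of ANGPTL2 held 1 core and that of ANGPTL4 held 2. A longer ETS motif, CCGGAAG, which contains the core and is present in 8.52% of promoters, and the FOXO motif GTAAACA, present in 2.98%, had no match on either strand in these 5 windows. When the 50 bases after each start were added, 1 FOXO match appeared, on the coding strand with its first letter at base 25 of the transcript from the second TEK start, and 3.42% of such longer windows held the motif. Windows were matched for 4 of the 7 members; PTPRB, ANGPT1 and ANGPT2 were not among them. The core was chosen after the windows had been read, and a match is not evidence of binding.

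PTPRB, which encodes VE-PTP, measured 15.7, 12.5 and 16.5 FPKM in 8OH-G miR-483 cells and 40.6, 29.6 and 35.0 FPKM in miR-483 cells. Every 8OH-G miR-483 library was lower than every miR-483 library, although libraries of a group were spread more widely than for TEK (coefficients of variation of 14.03% in 8OH-G miR-483 cells and 15.6% in miR-483 cells). The log2 fold change was -1.18 (SE 0.131, limma adjusted p = 0.00011), and it ranked 211 among the genes that fell. Relative to the gene of its substrate receptor, PTPRB was higher in every 8OH-G miR-483 library. The ratio of PTPRB to TEK was 0.636, 0.528 and 0.691 in 8OH-G miR-483 cells, against 0.450, 0.354 and 0.414 in miR-483 cells, 1.52-fold higher (exact two-sided permutation p = 0.1, adjusted 0.1).

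The gene of the antagonist ligand, ANGPT2, measured 85.1, 75.4 and 58.1 FPKM in 8OH-G miR-483 cells, against 17.8, 15.7 and 21.5 FPKM in miR-483 cells. The lowest 8OH-G miR-483 library, replicate 3, was still above every miR-483 library. The log2 fold change was 1.93 (SE 0.151, limma adjusted p = 1.82e-05), which ranked 84 among the 4277 genes that rose. ANGPT2 stood above 92.9% of tested genes in 8OH-G miR-483 cells and above 71.1% in miR-483 cells. ANGPT2 stood above TEK in every 8OH-G miR-483 library and below it in every miR-483 library. The ratio of ANGPT2 to TEK was 3.46, 3.18 and 2.44 in 8OH-G miR-483 cells, and 0.198, 0.188 and 0.254 in miR-483 cells. That ratio was 14.2-fold higher in 8OH-G miR-483 cells, with the same exact two-sided permutation p = 0.1 (adjusted 0.1). Every ANGPT2 value was higher and every TEK value lower in 8OH-G miR-483 libraries, so this ratio had to separate the groups. Its p therefore adds nothing to the results of the single genes.

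**Figure D2:**
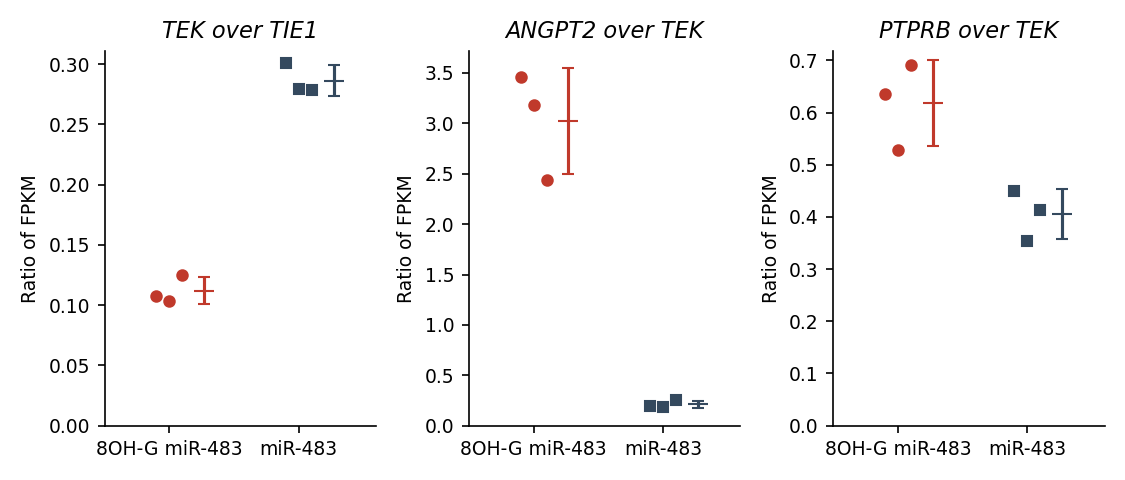
Each point is the ratio of 2 FPKM values from 1 library, and the bars beside the points give the mean and SD of 3 libraries (8OH-G miR-483 in red, left; miR-483 dark, right; all axes start at 0). The mean ratio of ANGPT2 to TEK was 3.02 in 8OH-G miR-483 cells and 0.213 in miR-483 cells, while that of TEK to TIE1 was 0.112 in 8OH-G miR-483 cells and 0.286 in miR-483 cells.

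The agonist gene ANGPT1 was barely detected. Its values were 0.322, 0.259 and 0.495 FPKM in 8OH-G miR-483 cells, against 0.0522, 0.0154 and 0.0573 FPKM in miR-483 cells. All of the 8OH-G miR-483 values were higher, and all 6 were under 1 FPKM. In a fit without the minimum, its log2 fold change of 0.38 had a limma adjusted p = 0.00531. With a pseudocount of 0.1 the change became 1.68, so its size rests on the pseudocount. Markers of mural cells, the usual source of ANGPT1, were low: 3 of 10 listed markers had a usable row, and their sum was 3.85 to 5.11 FPKM in 8OH-G miR-483 cells and 4.27 to 4.77 FPKM in miR-483 cells. Of these, NOTCH3 averaged 0.0908 and 0.148 FPKM, and ACTA2 1.82 and 1.85 FPKM, in 8OH-G miR-483 and in miR-483 cells.

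The angiopoietin-like genes encode secreted proteins with the same fold as angiopoietins that do not bind TEK. ANGPTL4 had 23.6, 20.8 and 22.4 FPKM in 8OH-G miR-483 cells and 13.9, 16.4 and 16.4 FPKM in miR-483 cells. All 8OH-G miR-483 libraries were higher, and the log2 fold change was 0.49 (SE 0.086, limma adjusted p = 0.00141). By size this was an ordinary rise, ranking 2240 among 4277. ANGPTL2, whose product binds integrins and promotes inflammation, had 12.5, 12.2 and 10.4 FPKM in 8OH-G miR-483 cells and 13.2, 13.1 and 13.9 FPKM in miR-483 cells. Although the groups did not overlap, the change of -0.18 (SE 0.080) missed the threshold (limma adjusted p = 0.0817). It passed as a fall after median-ratio scaling (-0.29, adjusted p = 0.0134) and after quantile normalization (-0.31, adjusted p = 0.0113). ANGPTL5, ANGPTL6 and ANGPTL8 averaged 0.267, 0.176 and 0.235 FPKM in 8OH-G miR-483 cells and 0.0992, 0.295 and 0.231 FPKM in miR-483 cells, and were not tested. The groups did not overlap for any of the 7 members, a pattern shared by 63.4% of tested genes.

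**Figure D3:**
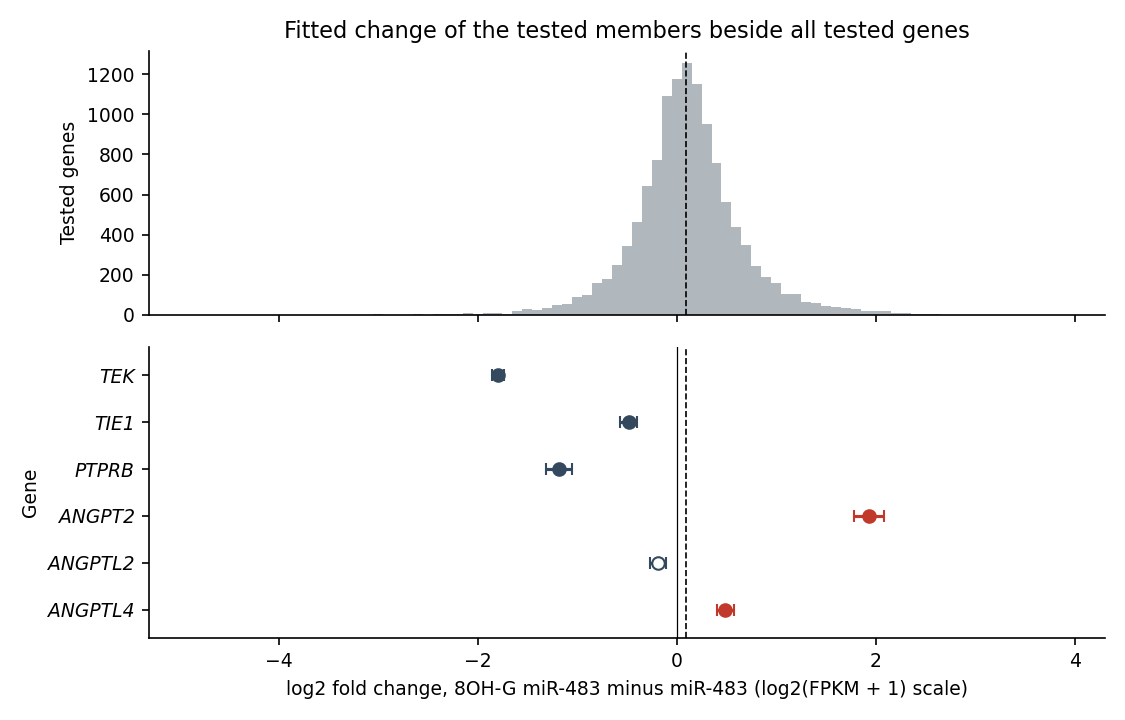
The upper panel counts all tested genes by log2 fold change, and the lower panel gives the 6 tested members with their SE (filled points passed the adjusted threshold; dark, lower and red, higher with 8OH-G miR-483; dashed line, median of all tested genes at 0.10). TEK at -1.80 and ANGPT2 at 1.93 lie in opposite tails, and ANGPTL2, the open point, lies near 0.

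The order of levels within the family differed between the groups. In 8OH-G miR-483 cells it ran TIE1, ANGPT2, TEK, ANGPTL4, PTPRB, ANGPTL2 and ANGPT1, and no 2 neighbours overlapped between their libraries. TEK and ANGPTL4 were close there, at 24.1 ± 0.476 and 22.2 ± 1.40 FPKM (SD, n = 3 libraries each). PTPRB and ANGPTL2 nearly touched in these cells: the lowest PTPRB library had 12.53 FPKM and the highest ANGPTL2 library 12.52 FPKM. In miR-483 cells the order was TIE1, TEK, PTPRB, ANGPT2, ANGPTL4, ANGPTL2 and ANGPT1. There ANGPT2 (18.3 ± 2.91 FPKM) overlapped ANGPTL4 (15.6 ± 1.47 FPKM), which in turn overlapped ANGPTL2 (13.4 ± 0.436 FPKM).

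Totals of the deposited values ran from 1598260 to 1687283 in 8OH-G miR-483 libraries and from 1396537 to 1440422 in miR-483 libraries. A single mitochondrial row, MT-ND4L, held 64.9% to 67.2% of the total in 8OH-G miR-483 libraries and 60.8% to 65.7% in miR-483 libraries. The median change over all tested genes shifted by -0.098 (log2) with median-ratio scaling and by -0.107 with quantile normalization. Higher genes made up 63.2% of the called genes as deposited, 3331 of 6656 with median-ratio scaling and 49.0% with quantile normalization. The 5 called members kept their direction and passed under both. Of 10 endothelial markers, all were tested, 5 fell (EMCN, VWF, PECAM1, CDH5 and ROBO4) and 0 rose. That is 50% lower and 0% higher, beside 20.4% and 35.1% of all tested genes. The summed level of these markers was 1271 to 1495 FPKM in 8OH-G miR-483 cells and 2010 to 2033 FPKM in miR-483 cells. This sum was lower beside the fall of TEK, TIE1 and PTPRB, and its part in those falls was not tested. KDR, the main VEGF receptor gene, was at 62.0 ± 7.46 FPKM in 8OH-G miR-483 cells and 62.6 ± 0.799 FPKM in miR-483 cells.

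Some markers of other cell types also differed between the groups, whereas the mural markers ACTA2 and TAGLN did not pass (limma adjusted p = 0.876 and 0.883). Of the leukocyte markers, 2 of 8 had a usable row, LYZ and CD68, and their sum was 6.49 to 7.79 FPKM in 8OH-G miR-483 cells and 14.2 to 17.7 FPKM in miR-483 cells. CD68 fell 1.66-fold, and LYZ, at 0.109 ± 0.0955 FPKM in 8OH-G miR-483 cells and 4.03 ± 0.339 FPKM in miR-483 cells, met the minimum only in the miR-483 libraries. PTPRC, CD14 and CD3E were not analysed here. Of 7 epithelial markers, 3 had a usable row, with a sum of 127 to 144 FPKM in 8OH-G miR-483 cells and 71.0 to 81.6 FPKM in miR-483 cells. KRT18 rose 1.97-fold (limma adjusted p = 1.86e-05), and KRT8 and KRT19 did not pass. Of 4 lymphatic endothelial markers, 3 had a usable row, with a sum of 23.7 to 31.4 FPKM in 8OH-G miR-483 cells and 36.12 to 37.98 FPKM in miR-483 cells. LYVE1 fell 1.67-fold, FLT4 did not pass, and PROX1 fell 1.43-fold, a call lost without 8OH-G miR-483 replicate 2 or miR-483 replicate 1 or 2 (limma adjusted p of 0.054 to 0.108). The part of these markers in the members' changes was not tested.

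Of 21 tested genes that carry the signal of TEK inward, 7 rose, 3 fell and 11 did not pass. The shares, 33.3% higher and 14.3% lower, lay near the 35.1% and 20.4% of all tested genes, and the median change was 0.11 (log2), against 0.10 for all tested genes, so these counts are no result about the list. PAK1, a kinase recruited through the adaptor NCK1, was at 3.94 ± 0.333 FPKM in 8OH-G miR-483 cells and 0.711 ± 0.170 FPKM in miR-483 cells. It met the minimum of 1 FPKM only in the 8OH-G miR-483 libraries, so it could enter the test only by being higher there; without it, 6 of 20 rose and 3 fell. PTPN11, the phosphatase SHP2 that docks on TEK, rose 1.52-fold, the PI3-kinase subunit gene PIK3R1 1.38-fold and NCK1 1.31-fold. AKT1, the kinase at the centre of the survival signal, was at 74.7 ± 3.11 FPKM in 8OH-G miR-483 cells and 61.2 ± 1.65 FPKM in miR-483 cells (log2 fold change 0.28, limma adjusted p = 0.00518). NOS3, the endothelial nitric oxide synthase, fell 2.41-fold, the ERK1 gene MAPK3 1.48-fold and the ERK5 gene MAPK7 1.39-fold. The count of falls was 6 after either scaling, as AKT2, TNIP2 and SOS1 then passed, and was also 6 with a replicate block.

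Among FOXO factors and genes that respond to FOXO1 or to TEK activation, 3 of 11 tested rose, 6 fell and 2 did not pass (median change -0.34, log2). That is 27.3% higher and 54.5% lower, beside 35.1% and 20.4% of all tested genes, in a list chosen with results known. The list mixes the factors with genes that respond to them or to TEK, not sorted by direction of response. Its counts and median are therefore no measure of FOXO1 or TEK activity, which was not tested. FOXO1 itself was at 18.3 ± 0.869 FPKM in 8OH-G miR-483 cells and 14.4 ± 0.440 FPKM in miR-483 cells, a rise of 1.28-fold (limma adjusted p = 0.00292). ESM1, a tip cell gene, rose 3.63-fold, and BIRC5, the apoptosis inhibitor survivin, rose 4.71-fold. BIRC5 is also a mitotic gene. FOXO4 fell 2.38-fold, and the cell-cycle inhibitor gene CCNG2, a FOXO target, fell 1.55-fold. TXNIP, an inhibitor of thioredoxin, was at 0.355 ± 0.0709 FPKM in 8OH-G miR-483 cells and 2.20 ± 0.293 FPKM in miR-483 cells. It met the minimum only in the miR-483 libraries; without it, 3 of 10 rose, 5 fell and the median change was -0.22. KLF2, which angiopoietin 1 can induce in endothelial cells, had the largest change of the list, a 12.5-fold lower mean in 8OH-G miR-483 cells (log2 fold change -3.56, SE 0.108, limma adjusted p = 3.75e-07).

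The 17 endothelial transcription factor genes were mostly of the ETS, GATA and FOX families and their partners. Of these, 10 fell (58.8%), 4 rose (23.5%) and 3 did not pass. Of all tested genes, 20.4% fell and 35.1% rose. The median change was -0.29 (log2), against 0.10 for all tested genes, in a list chosen with results known. The groups overlapped for ELF1, whose fall was lost without 8OH-G miR-483 replicate 1 or 2 or miR-483 replicate 1 or 3. That of HHEX was lost without 8OH-G miR-483 replicate 1 or 3 or miR-483 replicate 2. EPAS1, the hypoxia-inducible factor 2α gene, fell to 44.7 ± 4.74 FPKM in 8OH-G miR-483 cells, against 118 ± 6.01 FPKM in miR-483 cells. HIF1A, its relative, was higher, at 80.0 ± 3.68 FPKM in 8OH-G miR-483 cells and 50.7 ± 5.33 FPKM in miR-483 cells. The ETS family genes ELF4 and FLI1 fell 1.81-fold and 1.65-fold, and LMO2, a bridging protein of GATA and TAL1 complexes, fell 2.34-fold. LYL1, a relative of TAL1, and the forkhead gene FOXC2 rose 1.55-fold and 1.34-fold. ETV6, an ETS family repressor, rose 1.16-fold but did not pass after median-ratio scaling (adjusted p = 0.295), after quantile normalization (0.751), or without 5 of the 6 libraries in turn. ERG, ETS1 and GATA2 did not pass, at 72.7, 37.5 and 33.2 FPKM in 8OH-G miR-483 cells and 66.9, 33.9 and 29.8 FPKM in miR-483 cells.

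**Figure D4:**
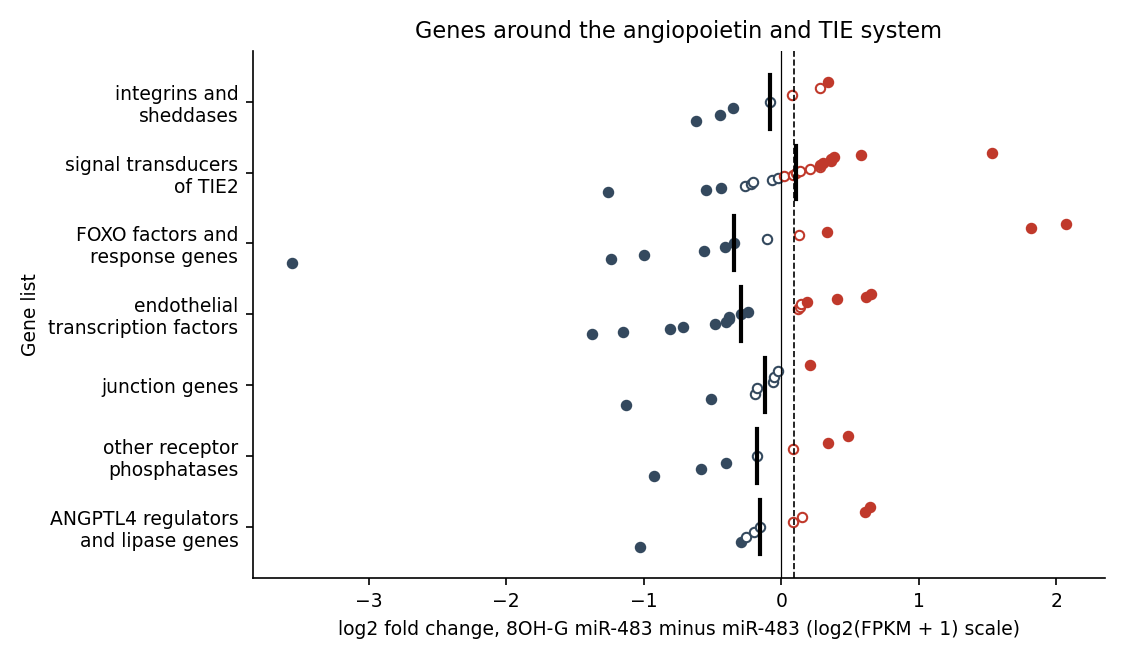
Each point is the fitted log2 fold change of 1 tested gene in a list of related genes (filled, passed the adjusted threshold; dark, lower and red, higher with 8OH-G miR-483), with a black bar at the list's median and a dashed line at the median of all tested genes, 0.10. KLF2, at -3.56, is the point farthest to the left, and BIRC5, at 2.07, the point farthest to the right.

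Among junction genes that work with VE-PTP, 2 of 8 fell, 1 rose and 5 did not pass. That is 25.0% lower and 12.5% higher, beside 20.4% and 35.1% of all tested genes, so the share of falls lay near that of all genes. FGD5, an endothelial exchange factor, fell to 39.7 ± 2.62 FPKM in 8OH-G miR-483 cells, against 88.0 ± 3.51 FPKM in miR-483 cells, and CDH5, the VE-cadherin gene whose product VE-PTP dephosphorylates, fell 1.42-fold. CTNNB1, β-catenin, rose 1.16-fold (limma adjusted p = 0.0453), a call lost under both scalings, without the minimum, without variance trend and without 5 of the 6 libraries in turn (adjusted p of 0.0523 to 0.311). Other receptor phosphatase genes did not share one direction: of 7 tested, PTPRE, PTPRM and PTPRA fell (1.93-fold, 1.56-fold and 1.34-fold), PTPRF rose (1.42-fold), PTPRS rose to 1.71 ± 0.112 FPKM in 8OH-G miR-483 cells, against 1.14 ± 0.113 FPKM in miR-483 cells, and PTPRG and PTPRJ did not pass. PTPRB had the lowest fitted change of the 8. Of the 7 without PTPRB, 42.9% fell and 28.6% rose, beside 20.4% and 35.1% of all tested genes, in a list chosen with results known.

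Integrins can also bind angiopoietin 2, and the proteases ADAM17 and MMP14 are able to release receptor ectodomains. Of 7 tested genes, 3 fell, 1 rose and 3 did not pass. That is 42.9% lower and 14.3% higher, beside 20.4% and 35.1% of all tested genes, in a list chosen with results known. ITGA5, the α5 subunit of the fibronectin receptor, fell to 393 ± 21.3 FPKM in 8OH-G miR-483 cells, against 605 ± 7.28 FPKM in miR-483 cells, ITGB5 fell 1.38-fold and ADAM17 1.30-fold. Its partner gene ITGB1 was at 493 ± 9.84 FPKM in 8OH-G miR-483 cells and 468 ± 24.9 FPKM in miR-483 cells and did not pass. MMP14 rose 1.27-fold (limma adjusted p = 0.0187), a call lost after median-ratio scaling (0.0767) and without 8OH-G miR-483 replicate 1 or 2 or miR-483 replicate 1 or 3 (0.0504 to 0.0632).

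Around ANGPTL4, of 9 tested regulators, coregulated genes and lipase genes, 2 rose, 2 fell and 5 did not pass. That is 22.2% higher and 22.2% lower, beside 35.1% and 20.4% of all tested genes, so the share of falls lay near that of all genes. PLIN2, a lipid droplet coat gene that is a PPAR target like ANGPTL4, rose 1.56-fold, and NR3C1, the glucocorticoid receptor gene, rose 1.71-fold. PDK4, another PPAR target, fell to 0.981 ± 0.220 FPKM in 8OH-G miR-483 cells, against 3.03 ± 0.0824 FPKM in miR-483 cells, and LMF1, a maturation factor of lipases, fell 1.30-fold. PPARD was at 18.2 ± 0.911 FPKM in 8OH-G miR-483 cells and 17.1 ± 0.856 FPKM in miR-483 cells and did not pass.

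The genes whose log2(FPKM + 1) followed each member most closely over the 6 libraries were sought among 5803 other genes with a mean of at least 10 FPKM. For TEK they were KIAA1522, SUN1 and ITGA3 (Pearson r of 0.9997, 0.9996 and 0.9992), for TIE1 TTC3, RHOB and CLSTN3, and for PTPRB FOXP1, TLR4 and SLC38A2. For ANGPT2 they included NDUFA10 and SPHK1 (0.9973 and 0.9968); for ANGPTL2 they were CPSF1, LINC01235 and FAM124B, and for ANGPTL4 MT-TF, TBC1D14 and PISD. The 6 libraries share 2 groups, so a gene that differs strongly between them correlates highly: 692 genes had r over 0.95 with TEK and 754 with ANGPT2, but 63 with ANGPTL2.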

How the data were processed

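The authors deposited 1 column of decimal values per library, taken here as FPKM because the totals exceed what TPM or CPM can reach; no label or header names the unit. Tools listed in the submitters' processing notes are cutadapt, STAR, HTSeq and DESeq2, and the build is hg19, without versions or order. How strand and multi-mapped reads were handled is not given in the sources used here. Of 20792 rows, 3204 that shared 748 names and 24 with names turned into dates were left out. The 12202 genes at or above 1 FPKM in 3 or more libraries were fitted as log2(FPKM + 1) in R 4.3.3 by limma 3.58.1, with group as the term and trended, robust shrinkage; p-values were Benjamini-Hochberg adjusted over all of them, at a threshold of 0.05. A positive fitted change means higher with 8OH-G miR-483; the pseudocount of 1 shrinks the changes of low genes. N-fold values are ratios of mean FPKM, or of geometric means for within-library ratios, which were tested by exact permutation. The fit was also run on simulated data with known changes, with an outcome not reported here. Alternatives covered the pseudocount, the minimum, scaling, repeated names, shrinkage, a replicate block and each library left out. The members and lists were chosen with earlier results of these data known. All members are named; from each list, its called genes with the largest changes were named, up to 4 in either direction, and other genes after their values were seen. Gene names came from the files, with synonyms and promoter windows from RefSeq (GRCh38.p14), a build other than the authors', so no coordinate of theirs was used. List members without a usable row were not analysed here, and some genes that meet the naming rule are not reported. Figures were drawn with matplotlib 3.10.9 in Python 3.11.15.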

Additional observations from a re-analysis of the deposited data

How the results depend on the processing

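TEK, TIE1, PTPRB, ANGPT2 and ANGPTL4 kept their direction and passed under every alternative run. Without each library in turn, their log2 fold changes ran from -1.82 to -1.76, -0.53 to -0.39, -1.29 to -1.07, 1.81 to 2.08 and 0.41 to 0.54. ANGPTL2 passed after median-ratio scaling (-0.29) and quantile normalization (-0.31), which lower the median of all changes. The ANGPT1 change was 1.68 with a pseudocount of 0.1. Same-numbered libraries of the 2 groups were not treated as pairs in the main fit, and the labels do not say whether they were. Their deviations of the tested genes from group means correlated at 0.025, 0.339 and 0.0087. For libraries of different number the correlations ran from -0.266 to 0.244. With so few libraries, these values cannot settle whether there was pairing. With a replicate block, 7308 genes passed, against 6769, and the called members were again 5. Fitted this way, the integrin and protease list had 2 higher genes, and the TEK signalling list had 6 lower. After median-ratio scaling these counts were 0 and 6, and after quantile normalization the signalling list again had 6. Without the minimum, 1 other angiopoietin-like gene was higher. The 1 higher junction gene, CTNNB1, became 0 without the minimum, after either scaling and without trend. With a minimum of 5 FPKM, 1 receptor phosphatase gene was higher and 0 genes of the ANGPTL4 list were lower, as fewer low genes were tested. Without each library in turn, the higher integrin and protease genes numbered 0 to 1, the lower signalling genes 3 to 5, the higher junction genes 0 to 1 and the lower ANGPTL4 list genes 2 to 4. Other causes were not tested.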
